A study of Mus musculus with 3 samples.

Results

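The genes described here encode the proteins of the cytosolic ribosome: every gene of the deposited table whose symbol is Rps or Rpl followed by a number, together with Rplp0, Rplp1, Rplp2 and Rpsa. Kinases and binding proteins with similar symbols, Rps27rt and symbols marked as pseudogenes were left out by name. This rule took 83 of 13891 genes, and these 83 genes held 12533944 UMIs (unique molecular identifiers, each standing for 1 captured mRNA molecule). The study examined single cells from the small intestine of male ICR mice, 3 weeks old at the start. It comprised 3 libraries, each made from cells of 6 mice that were combined before capture. Mice of the AOS 0 library received the vehicle only. Mice of the B + A 0 library received 1 injection of busulfan, an alkylating chemotherapy drug, at 40 mg/kg, and then the vehicle. Mice of the B + A 10 library received busulfan at 40 mg/kg and then alginate oligosaccharides (AOS) at 10 mg/kg by gavage. The vehicle was water and gavage lasted 2 weeks in all 3 libraries. Each group is therefore 1 library, in which the combined mice cannot be told apart. Where values of the 3 libraries stand together, AOS 0 comes first, then B + A 0, and B + A 10 last.

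Each ribosome has a small subunit, built with the Rps proteins, which reads the mRNA, and a large subunit, built with the Rpl proteins, which joins the amino acids. Dividing cells of the intestinal crypt make many ribosomes, and the cells that leave the crypt stop dividing and take up absorption or secretion. The mRNAs of most ribosomal proteins start with a C followed by a run of pyrimidines, the 5′ terminal oligopyrimidine tract, through which their translation is tied to mTOR signalling.

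Start sites are shown for members at both ends of the difference between mature enterocyte-like and stem-like cells described further on. They are the 4 with the largest fall and the 4 with the smallest fall among members with 1 RefSeq start window in the part of the genome searched. Each window holds 30 bases around the annotated start (GRCm38.p6, RefSeq, 15 bases before and 15 from the start on), written along the transcript. Capitals mark a run of at least 5 pyrimidines, read from a C within 5 bases of the start. The bases before that C were not checked. In Rpl12, Rpl14 and Rpl38 they are pyrimidines too, so the marked run is part of a longer one. The counts below use the same rule. Rpl12, Rpl14, Rps6 and Rps2 come from chr2:32961697-32961726 (+), chr9:120571502-120571531 (+), chr4:86857353-86857382 (-) and chr17:24720048-24720077 (+).
Rpl12: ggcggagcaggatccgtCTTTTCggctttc
Rpl14: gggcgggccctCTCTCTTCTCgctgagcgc
Rps6: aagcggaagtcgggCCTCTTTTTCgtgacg
Rps2: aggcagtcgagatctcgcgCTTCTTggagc
The windows of Rpl38, Rpl41, Rpl36al and Rpl7l1 come from chr11:114668565-114668594 (+), chr10:128549154-128549183 (-), chr12:69184053-69184082 (-) and chr17:46782642-46782671 (-).
Rpl38: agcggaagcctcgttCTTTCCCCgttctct
Rpl41: cacacgggccggctcggaagtgacgacacc
Rpl36al: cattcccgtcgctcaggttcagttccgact
Rpl7l1: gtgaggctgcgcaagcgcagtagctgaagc
Windows were at hand for 63 of the 83 genes, and 54 of them had a single window. The run was found in 24 of these 54 genes (44.4%) and in 4184 of the 22862 genes with a single window in all of the RefSeq annotation (18.3%), whether or not the deposited table holds them. Over members with any window, the median fall from stem-like to mature enterocyte-like cells was the same to within 0.1 on the log2 scale with and without the run, at -2.45 for 29 genes with it and -2.49 for 33 genes without it. An annotated start can lie several bases from the one that is used, so a window without capitals says only that the run is not at these letters.

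The table held 4106, 3195 and 5352 cells in the 3 libraries, with a median of 7371, 6407 and 3505 UMIs per cell. The libraries shared 17, 34 and 31 cell barcodes in their 3 pairs. Cells were clustered with all ribosomal protein genes left out, and clusters were named from marker genes. Olfm4, a stem cell marker, stood at 47.9, 41.2 and 38.8 UMIs per 10000 in the stem-like class and at or under 0.614 in the mature enterocyte-like class of the 3 libraries. The early enterocyte-like class was set apart only in part by its own markers. The 10 early enterocyte markers summed to between 204 and 228 there and to between 168 and 185 in the mature enterocyte-like class. The 16 mature enterocyte markers summed to between 158 and 191 in early and between 554 and 624 in mature enterocyte-like cells. Muc2, the goblet cell mucin, reached between 94.4 and 104 in the goblet-like class. The summed level of the 12 Paneth markers was between 4867 and 5206 in the Paneth-like class. It was between 25.3 and 107 in the stem-like, cycling-like and both enterocyte-like classes, with the highest values in B + A 0. In the goblet-like class it was higher, at 196, 233 and 248 in the 3 libraries. The 12 goblet markers summed to between 525 and 633 in the Paneth-like class. Free RNA was not removed from the values, and its part in the results was not tested.

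The share of a cell's mRNA molecules that came from ribosomal protein genes fell step by step along the enterocyte line and was low in Paneth-like cells. In stem-like cells these genes gave 27.7%, 28.5% and 29.2% of all UMIs. In cycling-like cells they gave 24.2%, 26.2% and 26.8%. The 2 classes lie close together, and within each library the stem-like value was higher by 1.14, 1.09 and 1.09-fold. In early enterocyte-like cells the share was 14.7%, 15.3% and 14.8%, and in mature enterocyte-like cells it was 5.59%, 6.34% and 6.11%. The stem-like share was 4.95, 4.50 and 4.78-fold that of mature enterocyte-like cells in the same libraries. Goblet-like cells stood at 9.66%, 10.0% and 9.71%, and Paneth-like cells at 5.07%, 5.0% and 4.90%.

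**Figure D1:**
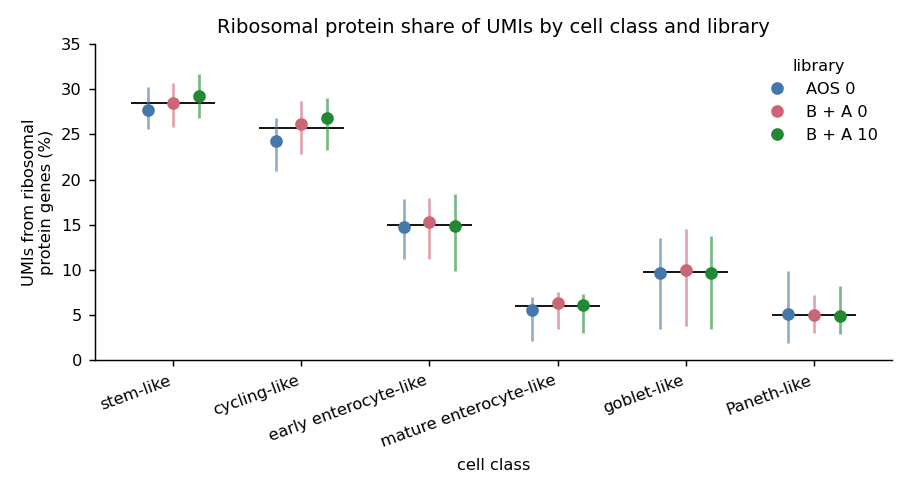
Percentage of UMIs from the 83 ribosomal protein genes (y axis) in 6 cell classes (x axis). Points are the 3 libraries, vertical lines run from the first to the third quartile over cells and black bars are the mean of the libraries. The stem-like mean is 28.5%, the mature enterocyte-like mean 6.01% and the Paneth-like mean 4.99%.

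As means of the 3 libraries, the shares were 28.5% ± 0.79 (SD, n = 3) in stem-like, 25.7% ± 1.4 in cycling-like, 15% ± 0.33 in early enterocyte-like, 9.80% ± 0.20 in goblet-like, 6.01% ± 0.39 in mature enterocyte-like and 4.99% ± 0.085 in Paneth-like cells. With UMIs summed over a class, no neighbouring classes in that order overlapped across the libraries. The place of the Paneth-like class depended on how the share was taken and of what. Medians over cells overlapped, at 4.45%, 4.59% and 4.51% in Paneth-like and 3.82%, 4.98% and 4.50% in mature enterocyte-like cells. Averaged over cells, or with classes from single-cell scores, the Paneth-like share was above the mature enterocyte-like one, as given at the end. Paneth-like cells carry very abundant defensin mRNAs and had a median of 25836, 24233 and 10459 UMIs per cell. They held a median of 1044, 1258 and 545 ribosomal protein UMIs per cell, against 221, 278 and 130 in mature enterocyte-like cells and 1822, 1630 and 964 in stem-like cells. With the 100 genes of most UMIs left out of every cell, the mean shares were 34.4% in stem-like, 31.6% in cycling-like, 22.4% in Paneth-like, 21% in early enterocyte-like, 20.2% in goblet-like and 9.80% in mature enterocyte-like cells. The Paneth-like class then stood beside the early enterocyte-like and goblet-like classes, while mature enterocyte-like cells were the lowest.

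The classes were not uniform inside. Early enterocyte-like cells fell into a cluster led by Gsdmc2 and Gsdmc4 with 17.5%, 18.7% and 18.8% and a cluster led by Ms4a18 and Il18 with 11.4%, 11.9% and 11.2%. Among mature enterocyte-like cells, the cluster led by Leap2, Dnase1 and Apoa4 (a lipoprotein of fat absorption) was lowest at 3.09%, 4.16% and 3.83%. The cluster led by Fabp6, the bile acid binding protein of the ileum, stood at 7.07%, 7.38% and 8.13%. Goblet-like cells spanned the widest range. Their cluster led by Ido1 and Clca1 held 2.70%, 3.44% and 3.4%, and the one led by Ccl9 and Reg4 held 16.9%, 17.6% and 17.4%. Outside the 6 classes, T cell-like cells stood at 18.1%, 19.5% and 18.9%.

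Ordered cell by cell, the fall was gradual in each library. Stem-like, cycling-like and both enterocyte-like classes were ranked by their mature enterocyte markers against their stem markers and split into 10 bins of equal cell number. From the first bin to the last, the share went from 28.9% to 2.26% in AOS 0, from 29.9% to 3.63% in B + A 0 and from 30.5% to 3.39% in B + A 10. Every bin was lower than the one before it in each of the 3 libraries. The order of the libraries was not the same along the line. In the fourth bin the AOS 0 library, at 19.5%, was below B + A 0 at 21.8% and B + A 10 at 21.3%, and in the last bin it was again the lowest. In the sixth bin it was the highest, at 11.9% beside 11.5% and 11.5%, and in the seventh too, at 9.23% beside 8.96% and 8.33%.

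**Figure D2:**
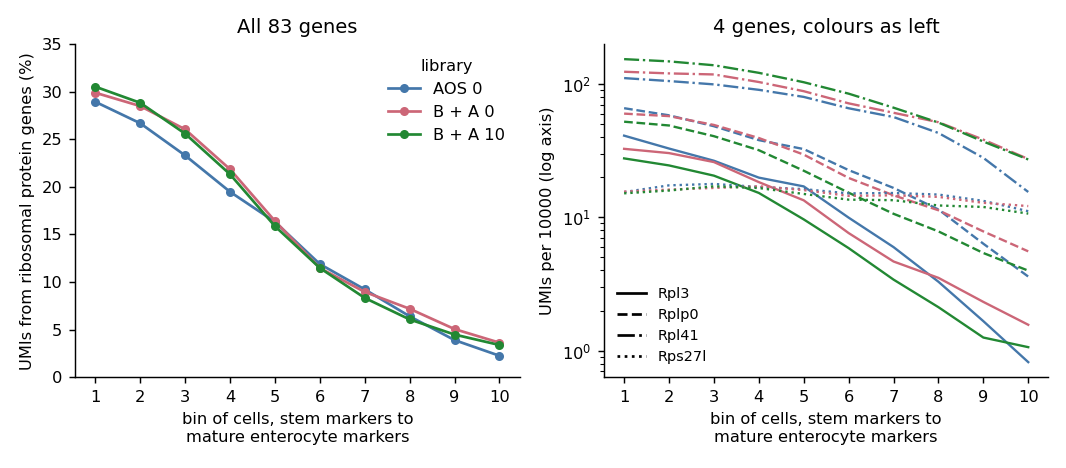
Left, percentage of UMIs from the 83 genes (y axis) in 10 bins of cells ordered from stem to mature enterocyte markers (x axis), 1 line per library. Bins were cut within each library. Right, mean UMIs per 10000 on a log axis for Rpl3, Rplp0, Rpl41 and Rps27l in the same bins: in AOS 0, Rpl3 goes from 41.0 to 0.821 and Rps27l from 15.5 to 11.1.

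Differences between classes were then tested gene by gene, with limma on log2(UMIs per 10000 + 0.1) over the 18 class means (6 classes in 3 libraries), with the library as a block. Of the 83 genes 81 passed the filter on low values. Rpl29 and Rpl32l did not, with 460 and 369 UMIs in all cells together. Calls are at a Benjamini-Hochberg adjusted p under 0.05 over all 6897 genes tested. They rest on how far the class differences varied between libraries, after each library's own level was taken out. That spread was pooled over the 6 classes and moderated across genes, and the libraries also differed in treatment. In mature enterocyte-like against stem-like cells, all 81 tested genes were lower and none was higher, where 43.8% of all genes tested were lower and 37.4% higher. The median difference was -2.49 on the log2 scale for the 81 genes and -0.08 for all genes. The 32 tested small-subunit genes had a median of -2.51 and the 49 large-subunit genes one of -2.46.

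**Figure D3:**
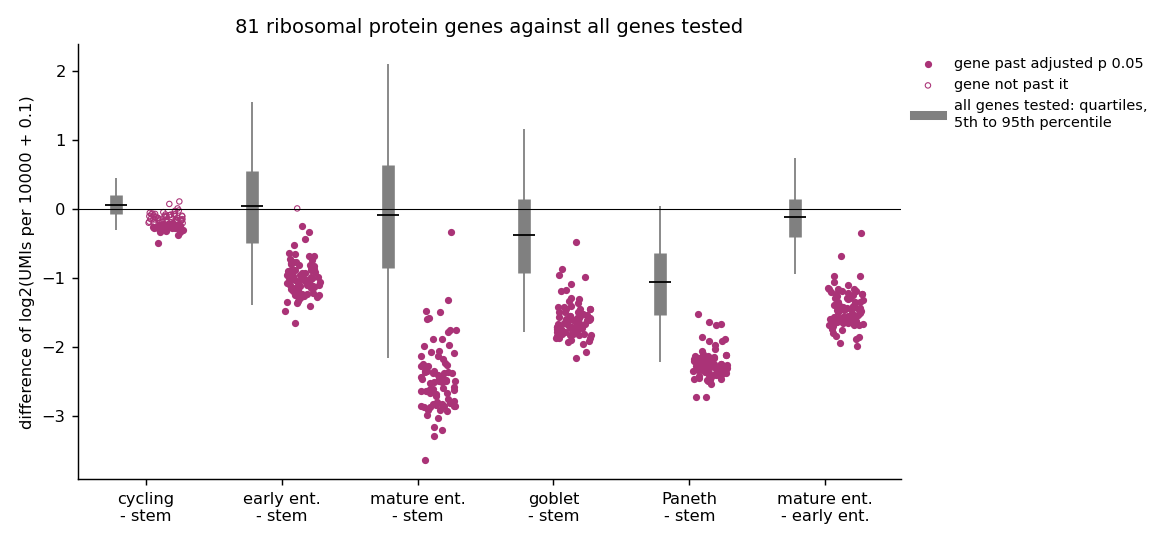
Difference of log2(UMIs per 10000 + 0.1) (y axis) in 6 comparisons of cell classes (x axis). Each point is 1 of 81 ribosomal protein genes, filled where past the threshold; grey bars show the quartiles, and lines the 5th to 95th percentile, of all 6897 genes. In mature enterocyte-like against stem-like cells the genes run from -3.63 (Rpl3) to -0.34 (Rps27l).

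The largest fall was that of Rpl3, a core protein of the large subunit near the site of peptide bond formation. Its level was 40.6, 34.2 and 27.9 UMIs per 10000 in stem-like cells of the 3 libraries and 2.83, 2.99 and 2.15 in mature enterocyte-like cells. The groups did not overlap, and the difference was -3.63 ± 0.084 (SE, limma, adjusted p = 1.78e-18). Rpl12, which sits at the base of the stalk, fell by 3.29 on the log2 scale, from 14.8, 15.7 and 15.5 to 1.27, 1.65 and 1.53. Rpl14 fell by 3.20. Rps6, the small-subunit protein phosphorylated by the S6 kinases, fell by 3.16, from 3.69, 5.22 and 4.24 to 0.302, 0.501 and 0.402.

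At the other end stood a group of genes that mostly encode very short proteins or are paralogues. Rps29 (56 codons) fell by 1.5 and Rpl41 (25 codons), the gene with the most UMIs among the 83, by 1.58. Rpl41 went from 105, 117 and 145 UMIs per 10000 to 33.4, 42.8 and 46.8. The paralogues Rpl36al and Rpl7l1 fell by 1.48 and 1.32. Rps27l, a paralogue of Rps27 that p53 induces, changed least. It stood at 16.2, 16.0 and 15.5 in stem-like and at 13, 13 and 11.8 in mature enterocyte-like cells, a difference of -0.34 ± 0.061 (SE, limma, adjusted p = 3.84e-05). That call rests on the scaling: with the 100 most abundant genes left out the difference was 0.08, and with scaling by the median of ratios it was -0.01, neither past the threshold.

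Genes with other roles lay between these ends. The stalk proteins Rplp0, Rplp1 and Rplp2, which recruit the elongation factors, fell by 2.71, 1.78 and 2.36. Rpsa, a small-subunit protein also known as a laminin receptor, fell by 2.49. Rpl5 and Rpl11, which bind Mdm2 together with the 5S rRNA, fell by 2.87 and 2.64. Rps19 and Rps14, whose loss causes Diamond-Blackfan anaemia and the anaemia of the 5q- syndrome, fell by 2.81 and 1.76. Rpl35 and Rps18, also among the 5 genes with the highest level over all cells, fell by 2.78 and 2.85.

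Falls were larger for genes with longer coding sequences. Coding lengths were at hand for 80 of the 81 genes. The 27 genes with 25 to 132 codons had a median of -2.35, the 27 with 133 to 192 codons one of -2.49 and the 26 with 194 to 419 codons one of -2.70. The ranges of these groups overlapped widely, from -2.87 to -0.34 in the shortest and from -3.63 to -1.32 in the longest. Other genes of the same lengths did not show this order, with medians of -0.28, -0.37 and -0.12 over 453, 585 and 2355 genes.

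Part of the fall was already seen in early enterocyte-like cells. There 80 of 81 genes were lower than in stem-like cells and none was higher (35% of all genes lower, 39.2% higher), with a median of -1.01. Rps27l was the exception, with 16.5, 16.4 and 15.1 UMIs per 10000 in early enterocyte-like cells (difference 0.01, limma adjusted p = 0.905). Rpl3 again had the largest fall, at -1.65. From early to mature enterocyte-like cells all 81 genes fell further (35.6% of all genes lower, 17.3% higher), with a median of -1.47 and a range from -1.98 for Rpl3 to -0.35 for Rps27l.

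Cycling-like and stem-like cells differed little, and their markers were shared in part. The summed level of the 18 cycling markers was between 22.8 and 25.4 in stem-like and between 40.2 and 43.8 in cycling-like cells. That of the 12 stem markers was between 60.4 and 71.4 in stem-like and between 26.8 and 31.8 in cycling-like cells. The comparison is thus not one of non-dividing with dividing cells. Of the 81 genes 26 were lower in cycling-like cells and none was higher, where 4.8% of all genes were lower and 11.4% higher. The median was -0.17, and Rpl3 (-0.50) and Rpl4 (-0.37), another large-subunit core protein, had the largest falls. Rpl36al, at 0.11, and Rps27l, at 0.07, were not past the threshold. The count of 26 is not stable. It was 16 without AOS 0, 4 without B + A 0 and 3 without B + A 10, 1 with every cell thinned to 1000 UMIs and 66 with only these 2 classes in the fit. Of all genes, 3.04%, 1.78%, 2.34%, 0.45% and 9.54% were lower in these runs. Between 77 and 79 members had differences below 0 in each of them, with medians between -0.18 and -0.15. The cycling-like cells also differed among themselves: the share was 20.6%, 22.1% and 23.3% in the cluster led by Cdc20 and Ube2c, genes of mitosis, and 27.4%, 28.4% and 29.1% in that led by Top2a, which lay near the stem-like values.

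In the secretory classes all 81 genes were lower than in stem-like cells. In goblet-like cells the median was -1.66, beside -0.37 for all genes tested, of which 56.7% were lower and 21.3% higher. Rps2 (-2.15), a small-subunit protein at the mRNA entry, fell most, and Rpl36al (-0.48), Rpl41 (-0.87) and Rpl38 (-0.96) fell least. In Paneth-like cells the median was -2.27, but 89% of all genes tested were lower there, 2.94% were higher and the median of all genes was -1.06. A count of 81 of 81 is thus near the background in that class. With the 100 most abundant genes left out, 77 of the 81 genes were lower and 1 was higher, Rps27l, with a median of -0.75 beside -0.02 for all genes. Of all genes tested, 31.3% were lower and 28.6% higher under that scaling. With scaling by the median of ratios 74 were lower and 1 was higher, with a median of -0.59. There 30.1% of all genes were lower and 30.6% higher, with a median of 0.01. In goblet-like cells these scalings gave medians of -1.02 and -1.02.

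The paralogues shifted against the genes they are named after. Shares of the 2 genes' summed UMIs are given, so a change in the share compares 2 genes in the same cells. Rpl36al made up 36.4%, 36.9% and 36.0% of the pair with Rpl36a in stem-like cells. It made up 53.1%, 53.1% and 52.3% in early and 56.8%, 59.7% and 60.5% in mature enterocyte-like cells. In goblet-like cells it stood at 59.2%, 59.2% and 58.4%. These classes did not overlap with stem-like cells, and the 3 libraries lay close together. Rps27l made up 32.4%, 27.4% and 21.9% of the pair with Rps27 in stem-like cells and 57.6%, 50.2% and 41.0% in mature enterocyte-like cells. The share was higher in mature enterocyte-like cells in each library, and within every class it was highest in AOS 0 and lowest in B + A 10.

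Rpl22l1, a paralogue of the RNA-binding protein Rpl22, went the other way along the enterocyte line. Its share of the pair was 64.6%, 59.9% and 54.0% in stem-like cells and 58.2%, 48.9% and 46.5% in mature enterocyte-like cells, lower in each library. In goblet-like cells it was 67.7%, 61.4% and 57.1%, higher in each library than in mature enterocyte-like cells. The libraries also differed, with AOS 0 the highest and B + A 10 the lowest in these 3 classes. Rpl22l1 fell by 2.86 and Rpl22 by 2.40 from stem-like to mature enterocyte-like cells. Rpl7l1 stayed a small part of its pair with Rpl7, from 3.56% ± 0.47 in stem-like to 5.54% ± 0.44 in mature enterocyte-like cells. Rpl37rt and Rpl32l are annotated as processed pseudogenes. Reads of near-identical copies may be split or dropped in counting, so their levels, and the very low level of Rpl29, are uncertain. Rpl37rt made up 15.2% ± 1.7 of its pair with Rpl37 in stem-like and 15.1% ± 1.6 in mature enterocyte-like cells.

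**Figure D4:**
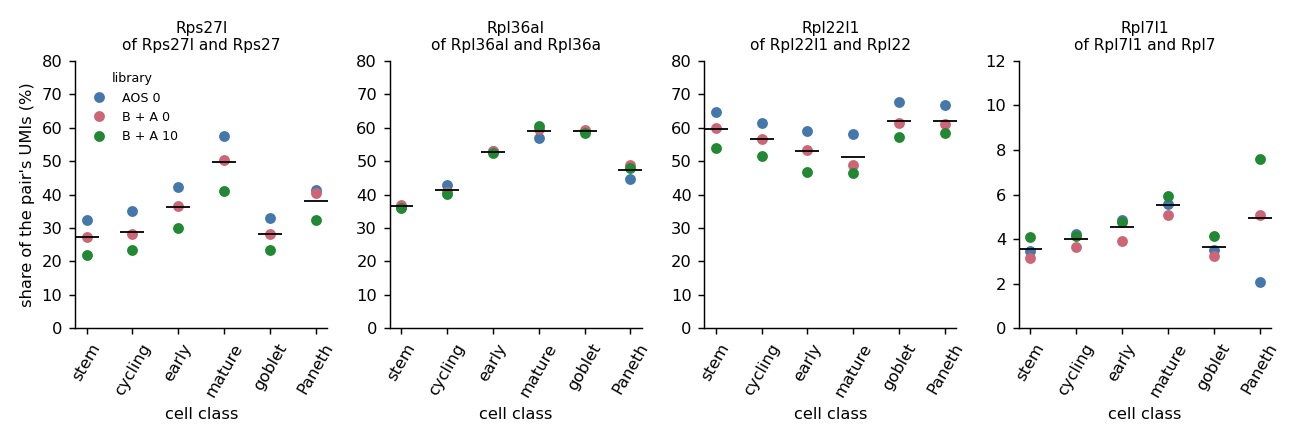
Share of the 2 genes' UMIs that came from the paralogue (y axis) in 6 cell classes (x axis) for 4 pairs. Points are the 3 libraries and black bars their mean; the y axis of the Rpl7l1 pair ends at 12%. The share of Rpl36al rises from 36.4% in stem-like to 59.0% in mature enterocyte-like cells, as means of the libraries.

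Rack1 and Fau, which the name rule does not reach, behaved unevenly. Rack1, a scaffold on the small subunit, fell by 2.45 from stem-like to mature enterocyte-like cells. Fau, which encodes the small-subunit protein eS30 fused to a ubiquitin-like protein, stood at 29.4, 30.3 and 31.4 UMIs per 10000 in stem-like cells and at 27.1, 31.6 and 31.9 in mature enterocyte-like cells. The groups overlapped (difference -0.01 ± 0.066, SE, limma adjusted p = 0.882), and its sign turned under several scalings.

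The rest of the translation machinery moved in the same comparison to differing degrees, and its counts stand beside 43.8% of all genes lower and 37.4% higher. All 35 tested genes of ribosome assembly and rRNA processing were lower in mature enterocyte-like cells, with a median of -2.19. The nucleolar proteins Npm1 (-4.18) and Ncl (-4.12) led, from 15.2 and 9.50 UMIs per 10000 in stem-like cells to 0.734 and 0.454. All 12 tested genes of RNA polymerase I and its factors were lower (median -1.52). Of 9 elongation factors and genes listed with them, such as Eef2k and Tpt1, 8 were lower (median -1.96). Eef1g stood at -2.86, and Tpt1, at -0.10, was not called. Of 31 initiation factors 27 were lower and 1, the helicase Eif4a2, was higher (0.37). Pabpc1, the poly(A)-binding protein, fell by 2.52. Of 77 mitochondrial ribosomal protein genes 69 were lower and 1, Mrps36, was higher, with a median of -1.11. The 6 tested genes of the p53 response were divided, 2 higher and 2 lower, which is near these shares. Cdkn1a, which encodes the cell cycle inhibitor p21, rose by 3.33, and Trp53 fell by 2.56. In cycling-like against stem-like cells the mitochondrial list had 10 of 77 genes higher and none lower, and the share that was higher is near the 11.4% of all genes.

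**Figure D5:**
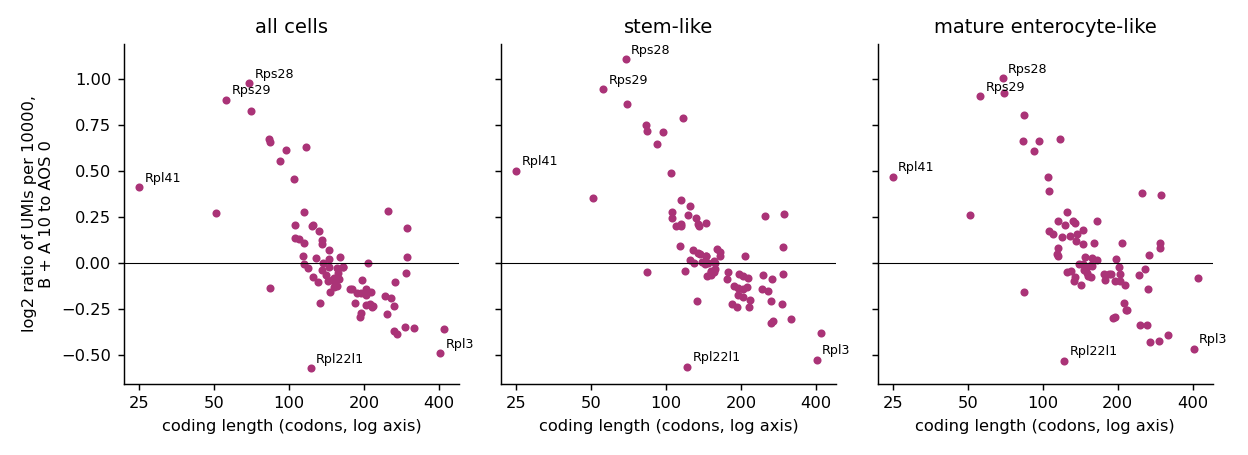
Log2 ratio of UMIs per 10000 between B + A 10 and AOS 0 (y axis) against coding length in codons on a log axis (x axis), for all cells, stem-like and mature enterocyte-like cells. Each point is 1 ribosomal protein gene. Rps28 lies at 0.98, 1.11 and 1.01 and Rpl3 at -0.49, -0.53 and -0.47.

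Between the libraries the total share moved far less than between the classes. With 1 library per group there is no test, and intervals (95%) cover counting error only. Over all cells, B + A 0 had 0.972 times the share of AOS 0 (0.971 to 0.974), B + A 10 had 1.06 times that of B + A 0 (1.06 to 1.06) and 1.03 times that of AOS 0 (1.03 to 1.03). The first 2 of these turn direction if values are averaged over cells, to log2 ratios of 0.04 and -0.02. Within classes, the ratio of B + A 0 to AOS 0 was 1.03 in stem-like, 1.08 in cycling-like, 1.04 in early enterocyte-like, 1.13 in mature enterocyte-like, 1.04 in goblet-like and 0.986 in Paneth-like cells. The ratio of B + A 10 to B + A 0 was 1.03 in both stem-like and cycling-like cells and between 0.965 and 0.980 in the other 4 classes. Other ways of assigning, weighting or thinning cells turned the direction of the latter in early enterocyte-like, mature enterocyte-like and Paneth-like cells, to log2 ratios of up to 0.111, 0.073 and 0.179. These comparisons share libraries and are not independent of each other.

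The single genes moved apart by more than the total did. A gene is counted here where its ratio between libraries, over all cells, was over 25% higher in one library than in the other, with at least 300 UMIs in the pair. Between B + A 0 and AOS 0, 6 of 82 genes were higher by that measure and 1, Rpl22l1, was lower, where 1.92% of all genes compared were higher and 20.1% lower. Between B + A 10 and B + A 0, 9 of 82 were higher and 1, Rpl29, was lower, where 11.7% and 1.99% of all genes were. Between B + A 10 and AOS 0, 11 of 81 were higher and 7 lower, where 7.49% and 17.6% of all genes were. The count of 9 in the second pair is near the background. Medians over all genes compared were -0.19, 0.09 and -0.10 on the log2 scale in the 3 pairs.

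Apart from Rpl37rt, which has no annotated coding sequence, the genes higher between B + A 10 and AOS 0 encode short proteins of both subunits. Rps28 (69 codons) stood at 14.5, 19.6 and 28.5 UMIs per 10000 over all cells of the 3 libraries, and its log2 ratio of B + A 10 to AOS 0 was 0.98 (0.96 to 1.00). It lay between 0.79 and 1.14 in each of the 6 classes, from Paneth-like to cycling-like cells. Rps29 (56 codons) stood at 23.7, 31.1 and 43.8 and Rpl38 (70 codons) at 11.5, 14.5 and 20.5. Rps21, Rps27 and Rpl37rt had log2 ratios of 0.67, 0.66 and 0.84 in the same pair. Between B + A 0 and AOS 0, the longer Rps6 (249 codons) was also higher, with a log2 ratio of 0.45 from 5569 and 5509 UMIs, and so was Rpl29 (160 codons), with 460 UMIs in all.

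Within single classes the counts were as follows. In stem-like cells 8 of 81 genes were higher and none lower between B + A 0 and AOS 0 (all genes 4.38% and 7.9%), 8 of 80 and none between B + A 10 and B + A 0 (5.63% and 4.42%), and 13 and 4 of 81 between B + A 10 and AOS 0 (9.89% and 18.3%). In mature enterocyte-like cells 12 of 81 were higher and none lower in the first pair (4.55% and 8.15%), 4 and 7 of 80 in the second (11.1% and 3.47%), and 14 and 7 of 81 in the last (14.1% and 11.3%), the last counts lying near the background.

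The genes that were lower were mostly long. Rpl3 (403 codons) stood at 15.6, 12.6 and 11.1 UMIs per 10000 over all cells of the 3 libraries, and its log2 ratio of B + A 10 to AOS 0 was between -0.57 and -0.39 in the 6 classes. Rpl7 and Rps4x, with 270 and 263 codons, had log2 ratios of -0.39 and -0.37, Rpl4 one of -0.36 and Rps2 one of -0.35. Rpl22l1, with 122 codons, was the lowest of all at 10.6, 8.24 and 7.11 UMIs per 10000, a log2 ratio of -0.58 (-0.60 to -0.55), and it lay between -0.69 and -0.44 in the 6 classes.

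Sorted by length, the 27 shortest genes had a median log2 ratio of B + A 10 to AOS 0 of 0.21 over all cells, with 21 of 27 above 0. The 27 of middle length had -0.08, with 6 above 0, and the 26 longest had -0.21, with 3 above 0. The order was the same within stem-like cells (0.27, 0.00 and -0.14) and within mature enterocyte-like cells (0.23, -0.02 and -0.10). In B + A 0 against AOS 0 it was 0.06, -0.10 and -0.14, and in B + A 10 against B + A 0 it was 0.17, 0.00 and -0.06. Other genes of the same 3 length ranges had medians of -0.07, -0.17 and -0.17 between B + A 10 and AOS 0, over 485, 659 and 2854 genes, and other genes over 419 codons had -0.05. Within stem-like cells the medians of other genes had the same order as those of the members, with 0.02, -0.12 and -0.18 over 270, 284 and 603 genes. Within mature enterocyte-like cells they did not, at 0.04, -0.06 and -0.05. In B + A 0 against AOS 0 other genes had the members' order over all cells (-0.14, -0.20 and -0.21). They also had it in stem-like (0.01, -0.05 and -0.11) and mature enterocyte-like cells (0.06, -0.03 and -0.07). In B + A 10 against B + A 0 they did not over all cells, at 0.07, 0.03 and 0.05, nor in mature enterocyte-like cells, at 0.013, -0.028 and 0.018. In stem-like cells of that pair they did, at 0.021, -0.056 and -0.059. Depth falls in the same order as these shifts, from a median of 7371 UMIs per cell in AOS 0 to 3505 in B + A 10. Treatment, depth, library preparation and the mice cannot be told apart.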

How the data were processed

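Single cells of the small intestine were captured in 3 droplet libraries, and the submitters' processing notes name Cell Ranger 2.2.0 and mm10. GENCODE M21 and RefSeq GRCm38.p6 served here for lengths and start sites. The deposited values are the natural log of 1 plus UMIs per 10000, made by the authors. UMIs were recovered from them, and 100% of 24333763 values came out whole within 0.01 UMI. The filters that the authors applied to cells are those of the deposited table, and no further filter was applied to cells. Cells of the 3 libraries were joined and clustered with Seurat 5.3.0 (2000 variable genes, 20 dimensions, resolution 0.8). The ribosomal protein genes and the other translation lists (286 genes) were left out of that step. Clusters took the class with most markers among their 20 leading genes, a rule chosen after the clusters were seen, and 623 cells stayed unnamed. These were clusters under 100 cells and 1 cluster of 469 cells that was set apart by an exception. Its best match was cycling, but Ccl9 and Reg4 led it, so it was kept out of the cycling-like class. Its ribosomal protein share was 20.9%, 22.3% and 22.9% in the 3 libraries. An automatic doublet call marked only 15 of 12653 cells, so doublets were not removed, and the highest 5% of scores were left out as an alternative. Class means were compared with limma 3.58.1 (library as block, genes with a mean of at least 0.1). Tested on simulated data for mature enterocyte-like against stem-like cells (6892 genes), 96.5% of 2-fold and 100% of 4-fold changes were recovered. Of 6500 unchanged genes 38 were called. The simulated classes shared 1 profile and a fixed level of noise, so the run does not cover the composition differences between the real classes. The genes, lists and tests were chosen with earlier results of these data known. Named genes were those with the 5 highest levels, the 5 largest and smallest differences or ratios, paralogues with their namesakes and a fixed list by role. The source name of the B + A 0 library reads AOS10, a group without busulfan, and that of the B + A 10 library reads B+A0. Groups follow the titles and the treatment labels, and if the source names were right, the library ratios would compare other groups. Some results that the naming rule covers are not reported here.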

Additional observations from a re-analysis of the deposited data

Results flagged for a closer look

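All 3 comparisons of libraries had classes whose ratios of the ribosomal protein share lay on opposite sides of 1, each beyond its counting interval. None of these differences was tested, since each group is 1 library. Between B + A 0 and AOS 0 the log2 ratio was higher in mature enterocyte-like than in Paneth-like cells by 0.202, between B + A 10 and B + A 0 higher in cycling-like than in mature enterocyte-like cells by 0.0883, and between B + A 10 and AOS 0 higher in cycling-like than in Paneth-like cells by 0.197. The Paneth-like ratio changed sign under other class assignments.

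Rows beside the name rule also carried signal. Rpl34-ps1 held 35729 UMIs, Rps27rt 38502, Rps19bp1 5655 and Rpl31-ps12 1717. Rps27rt stood at 8.88 UMIs per 10000 in stem-like and 2.31 in mature enterocyte-like cells, and Rpl34-ps1 at 8.27 and 1.71.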

How the results depend on the processing

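No paired analysis was possible because each group has 1 library, which holds for the comparisons between libraries. The comparisons between classes had the library as a block throughout. The counts of genes lower in mature enterocyte-like, early enterocyte-like, goblet-like and Paneth-like than in stem-like cells stayed within 1.5 times under every alternative run. The count for cycling-like cells did not: it was 5 at resolution 1.5, 59 without joining the libraries, 15 with classes from each cell's own scores, 17 without the 100 most abundant genes, 17 with the median of ratios, 1 with cells thinned to 1000 UMIs, 66 with 1 gene higher when these classes alone were fitted, and 3 to 16 when a library was left out. The share of all genes that was lower in these cycling-like runs was 3.66%, 11.1%, 5.27%, 2.38%, 3.68%, 0.45% and 9.54%. It was 1.78% to 3.04% when a library was left out. Without the 100 most abundant genes 1 gene was higher in early enterocyte-like, goblet-like and Paneth-like cells, where 41.4%, 42.6% and 28.6% of all genes were. In Paneth-like cells 1 was higher with the median of ratios, where 30.6% of all genes were. In mature enterocyte-like against stem-like cells the log2 difference of Rps27l was 0.085 without those genes. That of Fau was 0.41 without those genes, 0.31 with the median of ratios, 0.0067 with summed UMIs, 0.050 with clusters weighted equally, and between -0.049 and 0.044 when a library was left out.

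Shares moved most without the 100 most abundant genes, to 34.4%, 31.6%, 21%, 9.80%, 20.2% and 22.4% in stem-like, cycling-like, early enterocyte-like, mature enterocyte-like, goblet-like and Paneth-like cells. Without joining the libraries they were 27.6% in stem-like, 22.6% in cycling-like and 5.23% in Paneth-like cells. Early enterocyte-like cells stood at 13.8% at resolution 0.4 and 14.0% at 1.5, and mature enterocyte-like cells at 5.5% and 5.11%. With scores of single cells the mature enterocyte-like, goblet-like and Paneth-like shares were 5.0%, 10.6% and 6.46%. Averaged over cells they were 14.5%, 5.44%, 9.45% and 6.07% in early enterocyte-like, mature enterocyte-like, goblet-like and Paneth-like cells, and 14.5%, 5.46%, 9.45% and 6.06% after thinning. Clusters weighted equally, an alternative chosen after seeing the data, gave 10.1% in goblet-like and 6.07% in Paneth-like cells. The Paneth-like share was 4.02% at resolution 1.5 and 4.88% without the highest doublet scores.

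Over all cells, the log2 ratio of the share for B + A 0 to AOS 0 was 0.096 without the 100 genes, 0.039 averaged over cells and 0.037 thinned (the direction turned), and -0.035 without the highest doublet scores and -0.047 per 10000 other UMIs. For B + A 10 to B + A 0 these were -0.023, -0.019, -0.020 (the direction turned), 0.087 and 0.095, and for B + A 10 to AOS 0 they were 0.073, 0.020, 0.017, 0.052 and 0.048. Genes past the threshold between B + A 0 and AOS 0 were 10 higher and 0 lower without the 100 genes, 0 lower averaged over cells, and 1 higher and 0 lower at 1.5-fold. Between B + A 10 and B + A 0 they were 5 higher without the 100 genes, 5 averaged over cells, 5 higher and 2 lower thinned, and 1 higher and 0 lower at 1.5-fold. Between B + A 10 and AOS 0 there were 0 lower at 1.5-fold.

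Class ratios near 1 turned sign (log2 values). In Paneth-like cells, B + A 0 to AOS 0 was 0.019 at resolution 1.5, 0.157 without joining and 0.0092 without the highest doublet scores. B + A 10 to B + A 0 was 0.017 without joining, 0.124 with scores of single cells, 0.155 averaged over cells, 0.155 with equal clusters and 0.179 thinned. B + A 10 to AOS 0 was 0.174 without joining, 0.0078 with single-cell scores and 0.0060 without the highest doublet scores. In early enterocyte-like cells B + A 10 to B + A 0 was 0.024 at resolution 1.5 and 0.111 with single-cell scores, and B + A 10 to AOS 0 was -0.0010 at resolution 0.4, -0.0057 without joining, -0.019 averaged and -0.023 thinned. In mature enterocyte-like cells B + A 10 to B + A 0 was 0.073 with single-cell scores. The cause of these changes was not tested.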
